A study of Mus musculus with 20 samples.

Results

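Glycolysis and glucose uptake were followed through 34 genes in newborn and late fetal mouse ovaries lacking either of 2 oocyte transcription factors. The set holds the glucose transporters, every step from hexokinase to lactate dehydrogenase, the regulators of phosphofructokinase, the pyruvate dehydrogenase kinases and the lactate and pyruvate carriers. It was drawn up by function after Slc2a3 and Eno3 had been seen at higher levels in both knockouts, to find out whether the rest of the pathway moved with them. All 34 were present among the 49585 genes of the count tables. Because Slc2a3 and Eno3 prompted the choice, their P0 values are given as a description with no test, and counts at P0 cover the other 32 genes.

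Whole ovaries came from B6D2F1 mice. The groups were Figla-/- ovaries at P0, the day of birth, against Figla+/- controls at P0, Figla-/- ovaries at embryonic day 18.5 (E18.5) against Figla+/- controls at E18.5, and Lhx8-/- ovaries at P0 against Lhx8+/- controls at P0. The names of the Lhx8 control libraries call them wild type while their genotype field reads heterozygous, so they are called controls here. Each P0 group had 3 libraries and each E18.5 group had 4. FIGLA is a basic helix-loop-helix factor and LHX8 a LIM homeodomain factor; both are made by oocytes and are needed for primordial follicles to form or last in the mouse. How the null alleles were made, and what the controls share with them beyond the strain, is not given in the sources used here.

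Glucose enters a cell through carriers of the SLC2A family, is trapped by hexokinase, and is split and oxidised to pyruvate, which is either reduced to lactate or passed to mitochondria through the pyruvate dehydrogenase complex. In the ovary these tasks are divided: mouse oocytes use glucose poorly and live largely on pyruvate, while the surrounding somatic cells run glycolysis and supply it. Most steps are served by isoenzymes with different tissue patterns, such as the ubiquitous enolase ENO1 and the muscle enolase ENO3, or the lactate dehydrogenase subunits LDHA and LDHB, of which LDHB predominates in the mouse oocyte.

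Start-site sequences of 2 members that were higher in knockout ovaries and 2 that were lower are shown because FIGLA binds E-boxes, of which the general form is CANNTG. Slc2a3 could not be shown for want of a window, and Hk2 was called in the Lhx8 set only. Each is the 250 bases before the RefSeq start (GRCm38.p6), written 5′ to 3′ on the gene's own strand, with any CANNTG in capitals. The Eno3 stretch lies at chr11:70656926-70657175 on the plus strand, Hk2 at chr6:82774455-82774704 on the minus strand, Bpgm at chr6:34476106-34476355 on the plus strand and Ldhb at chr6:142507958-142508207 on the minus strand.
Eno3: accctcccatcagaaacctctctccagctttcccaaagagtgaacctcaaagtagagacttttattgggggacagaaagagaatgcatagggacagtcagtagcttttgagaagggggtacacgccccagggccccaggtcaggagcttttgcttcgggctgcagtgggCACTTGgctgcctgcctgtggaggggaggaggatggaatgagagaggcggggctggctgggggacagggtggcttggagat
Hk2: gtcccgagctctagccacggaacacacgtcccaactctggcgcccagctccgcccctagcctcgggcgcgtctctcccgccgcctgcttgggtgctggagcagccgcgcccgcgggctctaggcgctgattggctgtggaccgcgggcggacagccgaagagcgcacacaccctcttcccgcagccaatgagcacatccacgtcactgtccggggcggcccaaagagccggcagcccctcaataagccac
Bpgm: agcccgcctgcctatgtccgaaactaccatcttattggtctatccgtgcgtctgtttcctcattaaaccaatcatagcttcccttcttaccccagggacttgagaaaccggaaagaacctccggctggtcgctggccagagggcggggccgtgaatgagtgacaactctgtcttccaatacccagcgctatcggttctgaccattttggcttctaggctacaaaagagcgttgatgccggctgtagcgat
Ldhb: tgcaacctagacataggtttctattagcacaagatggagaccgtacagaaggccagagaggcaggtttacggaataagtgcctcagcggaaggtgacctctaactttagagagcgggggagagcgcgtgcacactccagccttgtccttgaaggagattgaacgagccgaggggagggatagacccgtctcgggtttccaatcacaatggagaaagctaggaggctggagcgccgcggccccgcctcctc
The Eno3 stretch held 1 E-box, and the other 3 held none. RefSeq windows of 300 bases, which add 50 bases after the start, were at hand for 32 of the 34 genes, 52 windows in all; Slc2a3 and Slc2a4 had none. CANNTG, searched on both strands, occurred in 67.3% of the members' windows and in 72.3% of all 32851 windows. Pdk1 and Pdk2, also called in the Figla set, are not shown. The windows of Pdk1 held 1 and 2 CANNTG, and those of Pdk2 held 0 and 1. TAATTA, a core recognised by many homeodomain factors, occurred in 1.92% of the members' windows and 5.29% of all. ACGTG, the core of hypoxia and glucose response elements, occurred in 40.4% against 19.6%, and GGGCGG, an Sp1-type GC box, in 48.1% against 35.7%. The Hk2 stretch held 2 ACGTG and 3 GGGCGG matches. A letter match is a description of the window, and no binding was measured.

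The 14 Figla-set libraries held 5583392 to 13408022 counts and the 6 Lhx8-set libraries 8297204 to 9978350. The Figla libraries cover whole transcripts and the Lhx8 libraries the 3′ ends, so levels are not compared between the sets. Libraries were grouped by library name; the sample titles give the other genotype for 6 of the 14 Figla and 6 of the 6 Lhx8 libraries, and grouping by title would turn every Lhx8 direction round. With the library names, Figla was at 0.179, 0.626 and 0.294 counts per 1000000 (CPM, scaled by TMM) in the P0 knockouts, against 32.2, 36.1 and 40.5 CPM in their controls. Lhx8 was at 17.0, 30.5 and 23.7 CPM in its knockouts, against 93.9, 102.9 and 90.4 CPM; these 3′ counts may lie outside the deleted part, which the sources do not give. At E18.5, Figla was at 0.852, 1.295 and 1.57 CPM in the knockouts, against 22.2, 3.92 and 26.6 CPM in the controls, so control replicate 3 stood apart, and Lhx8 was also low there, at 6.42 CPM. Knockout replicate 3 was low in Lhx8 too, at 6.80 CPM, against 18.3 and 45.1 CPM in the other knockouts. Replicates 1 and 2 of each E18.5 group were nearly the same library (chi-square per degree of freedom 1.32 in knockouts and 1.12 in controls) and were summed, leaving 3 samples a group. The labels do not say that libraries came from separate animals, and the spread behind each p-value may therefore be no more than technical.

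At birth most of the genes were not called in either knockout, and those that were went in both directions. In Figla-/- ovaries, 1 of the other 32 genes rose (Pdk2) and 3 fell (Bpgm, Ldhb and Pdk1), which is 12.5% against 16.0% of all 17321 genes tested (5.12% higher and 10.9% lower; edgeR quasi-likelihood test, Benjamini-Hochberg adjusted p under 0.05). In Lhx8-/- ovaries, 28 of the 32 passed the filter on low counts, of which 3 rose (Hk2, Aldoa and Tpi1) and 3 fell (Bpgm, Ldhb and Pdk3), or 21.4% against 10.4% of all 15274 genes tested (3.06% higher and 7.29% lower). Bpgm and Ldhb fell in both knockouts. The Figla count depends on the model. Fitting replicate number as well (a replicate block), there only an order of deposit, called 11 of the 32, and 4680 of all 17321 genes. It added rises of Hk2, Aldoa, Pfkfb3, Pfkm, Pfkl and Pdk4 and a fall of Slc16a3. In the Lhx8 set the block called 3 of the 28, and 931 of all 15274 genes.

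Small positive differences were more common than negative ones. The median log2 fold change was 0.23 over the 32 genes in Figla-/- ovaries, beside 0.02 over all genes, with 21 positive and 11 negative. In Lhx8-/- ovaries the median was 0.26 over 28 genes, beside 0.05, with 21 positive and 7 negative; over all genes 51.8% and 54.1% of the fold changes were positive in the Figla and Lhx8 comparisons. Of the 28 genes tested in both, 26 had the same sign, 19 positive and 7 negative. Every knockout sample lay above every control for 4 of the 32 genes and below for 3 in the Figla set, against 15.3% and 20.3% of all genes (35.6% in either direction). The Lhx8 counts were 7 and 4 of the 28, against 15.6% and 18.1% of all genes (33.7%). An unadjusted p under 0.05 was found for 8 of the 32 genes in the Figla set and 11 of the 28 in the Lhx8 set, against 30.8% and 27.8% of all genes.

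Among the glucose transporters, the genes of the plasma-membrane carriers GLUT1, GLUT3 and GLUT4, Slc2a3 stood apart. Slc2a3 (ENSMUSG00000003153; GRCm38 chromosome 6, 122727809 to 122801640, minus strand) encodes GLUT3, the high-affinity carrier best known from neurons. It had 45.0, 57.5 and 60.6 CPM in Figla-/- ovaries at P0, against 11.6, 12.3 and 12.9 CPM in controls. In the Lhx8 set it had 19.6, 15.1 and 25.1 CPM in knockouts, against 3.55, 4.02 and 4.05 CPM in controls. Every knockout sample lay well above every control in both sets, and the log2 fold changes were 2.15 ± 0.15 and 2.36 ± 0.25 (SE, n = 3 each group).

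Slc2a1, which encodes the basal carrier GLUT1, showed no such separation in the Figla set. It had 32.7, 55.4 and 38.1 CPM in Figla-/- ovaries, against 24.0, 57.5 and 29.1 CPM in controls, and the groups overlapped (log2 fold change 0.20 ± 0.30, edgeR adjusted p = 0.702). In Lhx8-/- ovaries it had 36.5, 11.3 and 17.1 CPM, against 8.26, 9.94 and 9.79 CPM in controls. There the groups did not overlap but 1 knockout was far above the other two, and the log2 fold change of 1.22 ± 0.37 missed the threshold (edgeR adjusted p = 0.0648), although DESeq2 called it (adjusted p = 0.0103), as did edgeR without knockout replicate 2 (adjusted p = 0.0186) and with no filter (adjusted p = 0.000112). Without knockout replicate 1, the highest of the 3, the log2 fold change was 0.61 (adjusted p = 0.155). Slc2a4, the gene of the insulin-responsive carrier GLUT4, had log2 fold changes of 0.24 in the Figla set and 0.32 in the Lhx8 set, neither past the threshold.

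Hexokinase catalyses the trapping step. Hk2 (ENSMUSG00000000628; chromosome 6, 82725025 to 82774454, minus strand), the inducible isoenzyme, rose in Lhx8-/- ovaries, with 56.7, 32.3 and 40.4 CPM against 18.1, 19.9 and 18.8 CPM in controls. Each knockout lay above each control (2.28-fold, log2 fold change 1.19 ± 0.21, edgeR adjusted p = 0.00583). In Figla-/- ovaries Hk2 had 37.9, 51.2 and 40.6 CPM, against 20.6, 36.9 and 15.6 CPM in controls. Here the groups also did not overlap, by a gap of about 1 CPM, and the log2 fold change of 0.83 ± 0.27 missed the threshold (edgeR adjusted p = 0.0572). DESeq2 called it (adjusted p = 0.00783), and so did edgeR without control replicate 2 (adjusted p = 0.00239). EdgeR also called it with no filter (adjusted p = 7.42e-06) and with a replicate block (adjusted p = 0.00193). Over 12 alternatives the log2 fold change ran from 0.61 to 1.25, and the edgeR adjusted p reached 0.1895. The constitutive Hk1 had log2 fold changes of 0.23 and 0.26 in the Figla and Lhx8 sets, not past the threshold in either.

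The phosphofructokinase subunits Pfkl, Pfkm and Pfkp form the enzyme of the committed step, and the Pfkfb genes encode the bifunctional enzymes that set its activator, fructose 2,6-bisphosphate. None of the 7 was called in the Figla set, and none of the 6 tested in the Lhx8 set. Pfkm came nearest among the subunits, with log2 fold changes of 0.33 (edgeR adjusted p = 0.0730) and 0.66 (adjusted p = 0.0558), and Pfkfb3, the form with the highest kinase activity, had 0.51 (adjusted p = 0.112) and 0.71 (adjusted p = 0.0511). DESeq2 called both genes in the Lhx8 set (adjusted p = 0.0309 and 0.0270). Gpi1, phosphoglucose isomerase, had log2 fold changes of -0.22 and 0.27.

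Aldoa and Tpi1, which encode aldolase A and triose phosphate isomerase, were called in the Lhx8 set and not in the Figla set, and the difference between the sets was not tested. Aldoa (ENSMUSG00000030695; chromosome 7, 126795234 to 126809108, minus strand) had 572.9, 541.8 and 705.2 CPM in Lhx8-/- ovaries, against 359.5, 310.1 and 469.4 CPM in controls. Its groups did not overlap (log2 fold change 0.68 ± 0.17, edgeR adjusted p = 0.0357), but the call was lost without knockout replicate 3 (adjusted p = 0.0832), control replicate 1 (0.140) or control replicate 2 (0.154). Tpi1 (ENSMUSG00000023456; chromosome 6, 124810586 to 124814296, minus strand) had 220.6, 125.7 and 156.7 CPM, against 76.5, 100.8 and 113.2 CPM, again without overlap (0.79 ± 0.22, adjusted p = 0.0443); 5 of the 6 fits that left out 1 library lost this call (adjusted p up to 0.168). In the Figla set Aldoa had 455.0, 383.1 and 290.0 CPM in knockouts, against 311.9, 331.6 and 200.8 CPM in controls, and Tpi1 had 184.1, 144.0 and 99.6 CPM, against 135.6, 140.2 and 78.9 CPM. Both overlapped there, with log2 fold changes of 0.42 (edgeR adjusted p = 0.184) and 0.27 (adjusted p = 0.492). With no filter on low counts edgeR called Aldoa there too (adjusted p = 0.00876). Aldoc, the brain-type aldolase gene, was not called in either set, with log2 fold changes of 0.24 and 0.46.

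Gapdh, Pgk1 and Pgam1, which carry out the middle steps of the lower part of the pathway, were not called in either set, with log2 fold changes of 0.48, -0.05 and 0.23 in Figla-/- and 0.26, 0.01 and 0.17 in Lhx8-/- ovaries. Their counts are uncertain, since 58.4%, 68.0% and 41.5% of the 50-base stretches of their transcripts also occur in transcripts of other genes. For Eno1 the share was 49.5%, and 86.9% in the last 300 bases, the part that 3′ libraries read. Gapdh, among the most abundant transcripts of most tissues, reached only 3.999 to 14.6 CPM in the P0 samples of both sets. For Slc2a3, Eno3, Bpgm, Hk2 and Pdk1 to Pdk3 this share was 0%, for Ldhb 21.0% (12.7% in the last 300 bases), for Aldoa 8.46% (17.9%) and for Tpi1 6.83% (18.1%).

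Bpgm was the member that fell most in both knockouts among those called. It encodes bisphosphoglycerate mutase (ENSMUSG00000038871; chromosome 6, 34476207 to 34505613, plus strand), which diverts an intermediate of the pathway into 2,3-bisphosphoglycerate and is best known from red blood cells. It had 22.1, 37.3 and 27.2 CPM in Figla-/- ovaries, against 71.5, 84.4 and 108.0 CPM in controls. In the Lhx8 set it had 35.0, 31.7 and 25.6 CPM in knockouts, against 69.5, 88.4 and 72.4 CPM in controls. The highest knockout lay below the lowest control by a wide margin in both sets. Bpgm was 0.329-fold its control level in Figla-/- ovaries (log2 fold change -1.61 ± 0.20, edgeR adjusted p = 0.000472) and 0.401-fold in Lhx8-/- ovaries (-1.32 ± 0.16, adjusted p = 0.000834). Both calls held in every alternative run.

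Red cell markers were not called in either set. The 9 erythroid markers summed to 213.8 to 903.8 CPM in Figla-/- ovaries, against 153 to 1173 CPM in controls, and to 4931 to 11879 CPM in Lhx8-/- ovaries, against 4150 to 6427 CPM. None of the 8 tested in the Figla set or the 5 tested in the Lhx8 set was called, against 16.0% and 10.4% of all genes.

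Enolase makes phosphoenolpyruvate, and Eno3 (ENSMUSG00000060600; chromosome 11, 70657202 to 70662513, plus strand) is its muscle-type gene. Eno3 had 43.2, 36.6 and 39.3 CPM in Figla-/- ovaries, against 14.2, 7.90 and 8.24 CPM in controls. In the Lhx8 set it had 66.3, 75.6 and 87.6 CPM in knockouts, against 15.5, 15.01 and 19.1 CPM in controls. The knockout samples were far above the controls in both sets, with log2 fold changes of 1.97 ± 0.21 and 2.21 ± 0.17. The ubiquitous Eno1 had log2 fold changes of 0.19 and 0.99 and the neuronal Eno2 0.56 and 0.55, none past the threshold. The Lhx8 value of Eno1 rests on knockout replicate 1, with 26.3 CPM beside 6.64 and 5.58 CPM in the others and 7.003, 6.66 and 5.85 CPM in controls; without that library the log2 fold change was -0.09. Eno1 is also the enolase gene whose sequence is largely shared.

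Skeletal muscle markers were summed because Eno3 is a muscle gene. The 12 of them summed to 13.23 to 25.81 CPM in Figla-/- ovaries, against 19.9 to 29.39 CPM in controls, and to 23.2 to 30.89 CPM in Lhx8-/- ovaries, against 22.62 to 28.95 CPM. Of those tested, 1 of 5 was called in the Figla set (Actn3, lower) and 0 of 4 in the Lhx8 set, against 16.0% and 10.4% of all genes. The muscle creatine kinase gene Ckm and the muscle actin gene Acta1 were at 0 in the Lhx8 controls, and Myod1 in both Lhx8 groups. Among the 12, 5 in the Lhx8 set (Myh3, Myf5, Ckm, Mylpf and Tnni2) lay above every control and none below. Only Mylpf of these 5 was tested, and the other 4 were too low to test. The share of 15.6% above is over all genes tested and does not cover those 4. At E18.5 the sums were 21.03 to 42.09 CPM in Figla-/- ovaries, against 22.73 to 63.53 CPM. The part of muscle RNA in the Eno3 values was not tested.

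**Figure D1:**
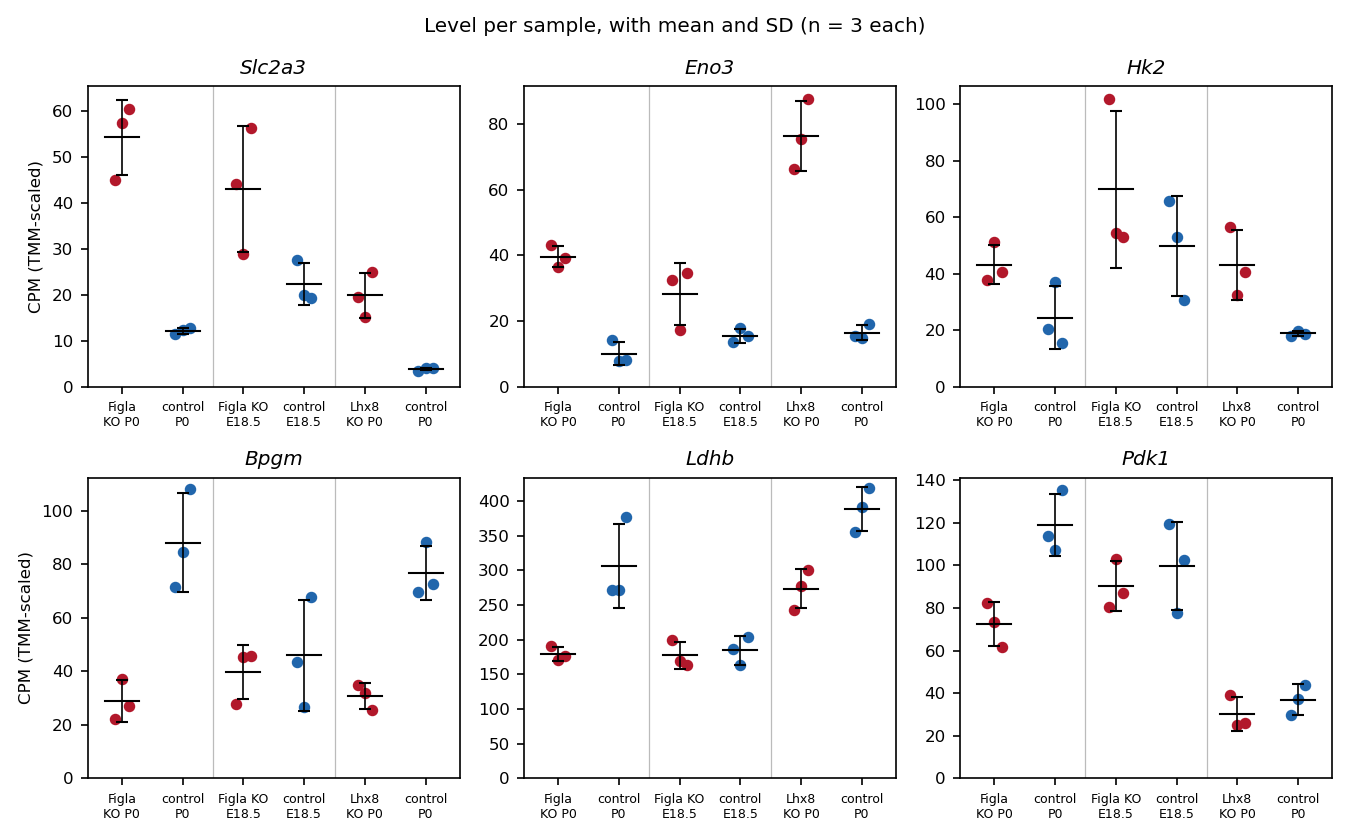
CPM in each sample for Slc2a3, Eno3, Hk2, Bpgm, Ldhb and Pdk1, with the mean and SD of 3 samples per group; red points are knockouts and blue points controls, for Figla at P0, Figla at E18.5 and Lhx8 at P0 from left to right. Slc2a3 and Eno3 are higher and Bpgm and Ldhb lower in every P0 knockout sample than in any of its controls, while at E18.5 the groups of 5 of the 6 genes overlap.

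Pyruvate kinase, the last step to pyruvate, was not called in either set. Pkm had log2 fold changes of 0.26 and 0.16. Pklr, the liver and red cell form, varied from 0.0896 to 7.55 CPM in Figla-/- ovaries, against 0.186 to 30.6 CPM in controls, and had no count in any Lhx8-set library.

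Lactate dehydrogenase interconverts pyruvate and lactate, and its B subunit gene Ldhb (ENSMUSG00000030246; chromosome 6, 142490249 to 142507957, minus strand) fell in both knockouts. It had 190.9, 171.1 and 176.1 CPM in Figla-/- ovaries, against 271.4, 271.7 and 376.6 CPM in controls. In the Lhx8 set it had 243.1, 278.1 and 299.8 CPM in knockouts, against 355.5, 391.6 and 419.3 CPM in controls. No knockout sample reached its lowest control, with log2 fold changes of -0.77 ± 0.14 (edgeR adjusted p = 0.00337) and -0.51 ± 0.13 (adjusted p = 0.0387). The Lhx8 call is the less firm, since 5 of the 6 fits without 1 library lost it (adjusted p up to 0.134). Ldha, the A subunit gene, had log2 fold changes of 0.37 (adjusted p = 0.322) and 0.44 and was not called.

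Because these are bulk samples, fewer cells of a type and less RNA per cell cannot be told apart, and the 2 knockouts differed from controls in their oocyte markers. The 15 oocyte markers include Figla and Lhx8, so the sum and the calls of each set hold its own deleted gene. They summed to 701.6 to 784.8 CPM in Figla-/- ovaries, against 2038 to 3449 CPM in controls. There 13 of 14 tested were lower, Mael was not called (log2 fold change -0.15), and Zp1, Zp2 and Zp3 were at 0 in the knockouts. In Lhx8-/- ovaries they summed to 813.5 to 1349 CPM, against 2271 to 2528 CPM, with 10 of 14 lower. Dazl, Mael, Sohlh1 and Figla were not called there. Zp1 was at 0 in the Lhx8 knockouts alone, and Oosp1 was at 0 in both Lhx8 groups. The 11 stromal markers summed to 6799 to 7802 CPM in Figla-/- ovaries, against 4852 to 5871 CPM, with 7 of 11 called higher. In Lhx8-/- ovaries they summed to 5610 to 6455 CPM, against 3772 to 4284 CPM, with 5 of 11 higher. Of all genes, 5.12% were called higher and 10.9% lower in the Figla set, and 3.06% and 7.29% in the Lhx8 set. The part of the oocyte or the stromal shift in the values of Bpgm, Ldhb, Slc2a3 and Eno3 was not tested.

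Markers of other somatic cells were summed in the same way. Calls in these lists stand beside 5.12% of all genes called higher and 10.9% lower in the Figla set, and 3.06% and 7.29% in the Lhx8 set. The 15 granulosa markers summed to 2691 to 2979 CPM in Figla-/- ovaries, against 1723 to 2333 CPM, with 2 of 15 called higher. In Lhx8-/- ovaries they summed to 1825 to 2119 CPM, against 1563 to 1701 CPM, with 1 called higher and Foxl2, Hsd17b1 and Amh not tested. Endothelial markers summed to 526.1 to 612.3 CPM in Figla-/- ovaries, against 322.1 to 465 CPM, with 4 of 10 called higher, and to 600.9 to 695.4 CPM in Lhx8-/- ovaries, against 557.2 to 596.8 CPM, with 0 of 10 called. Macrophage markers summed to 88.78 to 97.84 CPM in Figla-/- ovaries, against 62.75 to 66.02 CPM, with 2 of 9 called higher, and to 107.4 to 140 CPM in Lhx8-/- ovaries, against 76.97 to 91.14 CPM, with 1 of 8. Neurons are a known site of GLUT3, and neuron markers summed to 41.96 to 52.37 CPM in Figla-/- ovaries, against 28.93 to 38.87 CPM. The granulosa, endothelial and macrophage sums did not overlap in either set, and the neuron sums did not overlap in the Figla set. Taken singly, 35.6% of all genes tested in the Figla set and 33.7% in the Lhx8 set did not overlap in either direction. Neuron markers overlapped in the Lhx8 set, at 70.11 to 90.05 CPM against 58.25 to 78.91 CPM. Fat markers overlapped in the Figla set (85.41 to 112.8 CPM, against 78.63 to 97.55 CPM) and did not in the Lhx8 set (102.1 to 129.4 CPM, against 69.51 to 86.27 CPM), and no neuron or fat marker was called in either set. The part of these lists in the glycolysis values was not tested.

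The pyruvate dehydrogenase kinases restrain the entry of pyruvate into the citric acid cycle, and 3 of the 4 were called in a set, each in only 1 of them and not all in the same direction. Pdk1 (ENSMUSG00000006494; chromosome 2, 71873224 to 71903858, plus strand) had 82.3, 73.4 and 61.7 CPM in Figla-/- ovaries, against 114.0, 107.4 and 135.6 CPM in controls, a fall without overlap (log2 fold change -0.72 ± 0.13, edgeR adjusted p = 0.00493). In Lhx8-/- ovaries it had 39.2, 25.1 and 26.0 CPM, against 29.7, 37.4 and 43.9 CPM, with overlap (log2 fold change -0.29 ± 0.40).

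Pdk2 (ENSMUSG00000038967; chromosome 11, 95026258 to 95041354, minus strand) had 110.4, 83.8 and 97.3 CPM in Figla-/- ovaries, against 68.0, 73.5 and 58.0 CPM. It rose without overlap (0.55 ± 0.13, edgeR adjusted p = 0.0189), but the call was lost without knockout replicate 1 (adjusted p = 0.0676) or 3 (0.0705), in a model of all Figla samples (0.0645) and with agreeing labels only (0.0990). In Lhx8-/- ovaries Pdk2 had 38.4, 71.1 and 111.6 CPM, against 76.3, 48.7 and 65.8 CPM, a wide overlap (adjusted p = 0.709).

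Pdk3 (ENSMUSG00000035232; chromosome X, 93764607 to 93832201, minus strand) fell in Lhx8-/- ovaries, with 85.1, 98.9 and 123.3 CPM against 175.9, 174.7 and 143.1 CPM (log2 fold change -0.68 ± 0.16, edgeR adjusted p = 0.0269). The call was lost without knockout replicate 2 (adjusted p = 0.0624), control replicate 1 (0.106) or control replicate 2 (0.111). In Figla-/- ovaries its 106.0, 94.7 and 95.3 CPM overlapped the 100.9, 96.2 and 113.6 CPM of controls (adjusted p = 0.703). Pdk4 had a log2 fold change of 0.63 in the Figla set (adjusted p = 0.143) and was too low to test in the Lhx8 set. None of these differences between the 2 knockouts was tested, as the sets differ in library type.

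The carriers that move lactate and pyruvate across the plasma membrane were not called. Slc16a1, the gene of MCT1, had log2 fold changes of -0.09 in Figla-/- and -0.13 in Lhx8-/- ovaries, and Slc16a3, the gene of the lactate exporter MCT4, -0.43 (edgeR adjusted p = 0.193) and -0.47 (adjusted p = 0.116).

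Levels per exon length, as TPM, the share of length-corrected counts, were set side by side for the genes in the Figla set. The length is that of all annotated exons of a gene, which can exceed the transcript that is made. It was 5379 bases for Eno1 and 1739 for Eno3. In CPM, which use no length, Eno1 and Eno3 averaged 125.1 and 39.7 in P0 knockouts, and 110.2 and 10.1 in controls. Eno3 averaged 66.5 TPM in P0 knockouts and 16.8 TPM in controls, while Eno1 averaged 67.6 TPM in knockouts and 58.6 TPM in controls. Eno3 was thus 48.9% ± 8.98 of enolase TPM in knockouts and 21.8% ± 6.01 in controls (SD, n = 3 each). Slc2a3 averaged 22.1 TPM in knockouts and 4.84 TPM in controls, which is 34.02% ± 3.64 and 12.5% ± 3.52 of the TPM of the 3 transporter genes. Slc2a1 had the highest TPM of the 3 in both groups, at 35.7 TPM in knockouts and 29.6 TPM in controls. The lengths used were 3506 bases for Slc2a1 and 7245 for Slc2a3. These shares follow from the genes that prompted the choice and carry no test. They depend on the exon lengths used, and that of Eno3 also on the uncertain Eno1 counts.

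Among the counts as deposited, Ldhb had the highest TPM of the 34 genes in both groups, at 333.5 TPM in knockouts and 558.9 TPM in controls. It made up 71.5% ± 6.08 of lactate dehydrogenase TPM in knockouts and 84.1% ± 5.58 in controls, the rest being Ldha, at 135 TPM in knockouts and 102.2 TPM in controls. Aldoa and Pkm followed, at 290.8 and 284.8 TPM in knockouts and 213.8 and 233.7 TPM in controls. Bpgm ranked 18 of the 34 in knockouts, at 23.9 TPM, and 9 in controls, at 70.0 TPM. Ranks and sums carry the limit that reads of Gapdh, Pgk1, Eno1 and Pkm, which share 58.4%, 68.0%, 49.5% and 23.7% of their 50-base stretches with other genes, may not all be counted. Ranks and shares also depend on the exon lengths used, 1570 bases for Ldhb, 3310 for Ldha, 3762 for Aldoa and 5001 for Pkm. In CPM, which use no length, Pkm and Ldhb averaged 489.5 and 179.4 in knockouts, and 410.0 and 306.6 in controls. The summed TPM of the 34 genes was 2270, 2398 and 1889 in P0 knockouts, against 2151, 2132 and 2086 in controls, so the groups overlapped in the total.

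**Figure D2:**
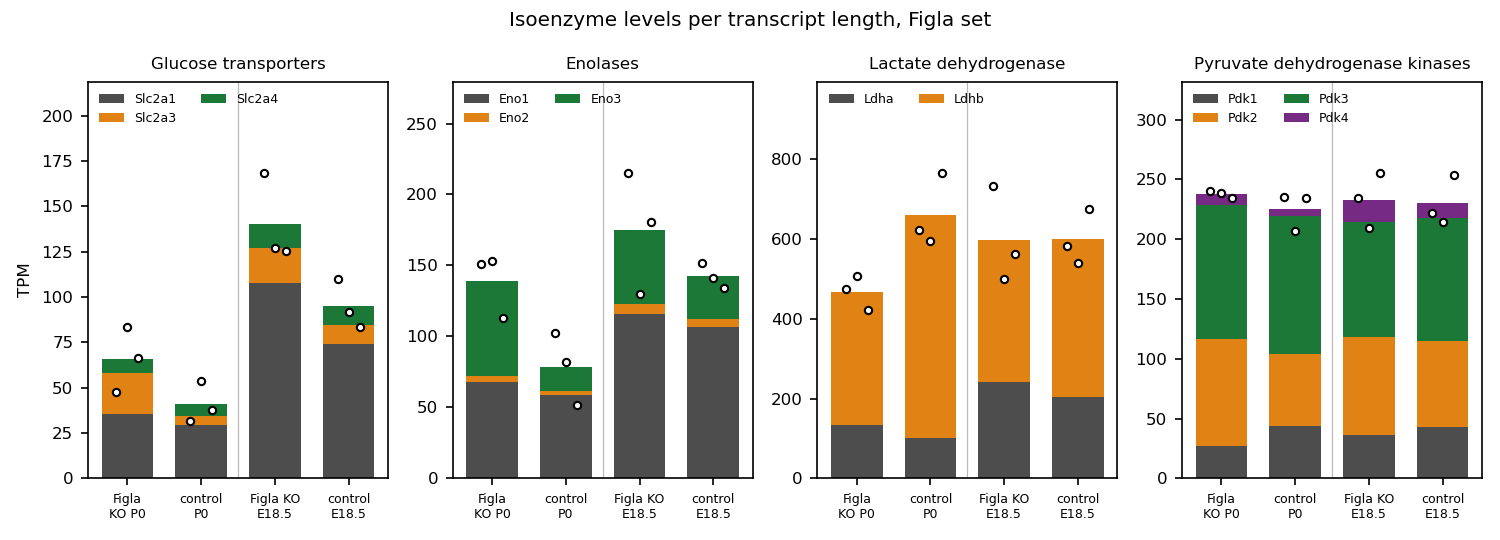
Mean TPM of each isoenzyme, stacked by family, in the Figla set at P0 and E18.5 (n = 3 each); open points are the family total in each sample. The Eno3 layer averages 66.5 TPM in P0 knockouts and 16.8 TPM in P0 controls, and the Ldhb layer 333.5 and 558.9 TPM. The sizes of layers beside each other depend on the exon lengths used.

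At E18.5, before birth, 0 of the 34 genes were called in Figla-/- ovaries, where 1 of 16131 genes was called at all (0.00620%; 3.76% had an unadjusted p under 0.05). Of the 34, 3 had an unadjusted p under 0.05 by edgeR, namely Slc2a3, Eno3 and Slc16a1, and DESeq2 also called 0. Slc2a3 had 44.1, 29.0 and 56.4 CPM in knockouts, against 27.6, 20.0 and 19.4 CPM in controls. The groups did not overlap (log2 fold change 0.95 ± 0.27, edgeR adjusted p = 0.9999; 0.87 without control replicate 3). Eno3 had 32.7, 17.3 and 34.8 CPM in knockouts, against 13.5, 17.8 and 15.4 CPM in controls. Here knockout replicate 3 lay within the controls (log2 fold change 0.87 ± 0.28, adjusted p = 0.9999; 0.98 without control replicate 3).

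Bpgm and Ldhb showed no separation at E18.5. Bpgm had 27.9, 45.3 and 45.6 CPM in knockouts, against 43.4, 26.6 and 67.8 CPM in controls, and Ldhb had 199.2, 169.8 and 162.9 CPM, against 186.2, 163.3 and 204.5 CPM. The control replicate with the least Figla had the lowest value of both genes among the controls. Over the 34 genes 29 fold changes were positive and 5 negative, against 52.9% positive over all genes, with a median of 0.25 beside 0.01 over all genes and 0.28 without control replicate 3. Slc2a3, Pfkl, Tpi1 and Slc16a1 lay above their controls in every knockout and none lay below, against 3.40% and 3.94% of all genes (7.35% in either direction). The oocyte markers summed to 410.7 to 566.2 CPM in knockouts, against 429.4 to 1646 CPM in controls, and the erythroid markers to 1104 to 3172 CPM, against 825.4 to 1025 CPM.

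**Figure D3:**
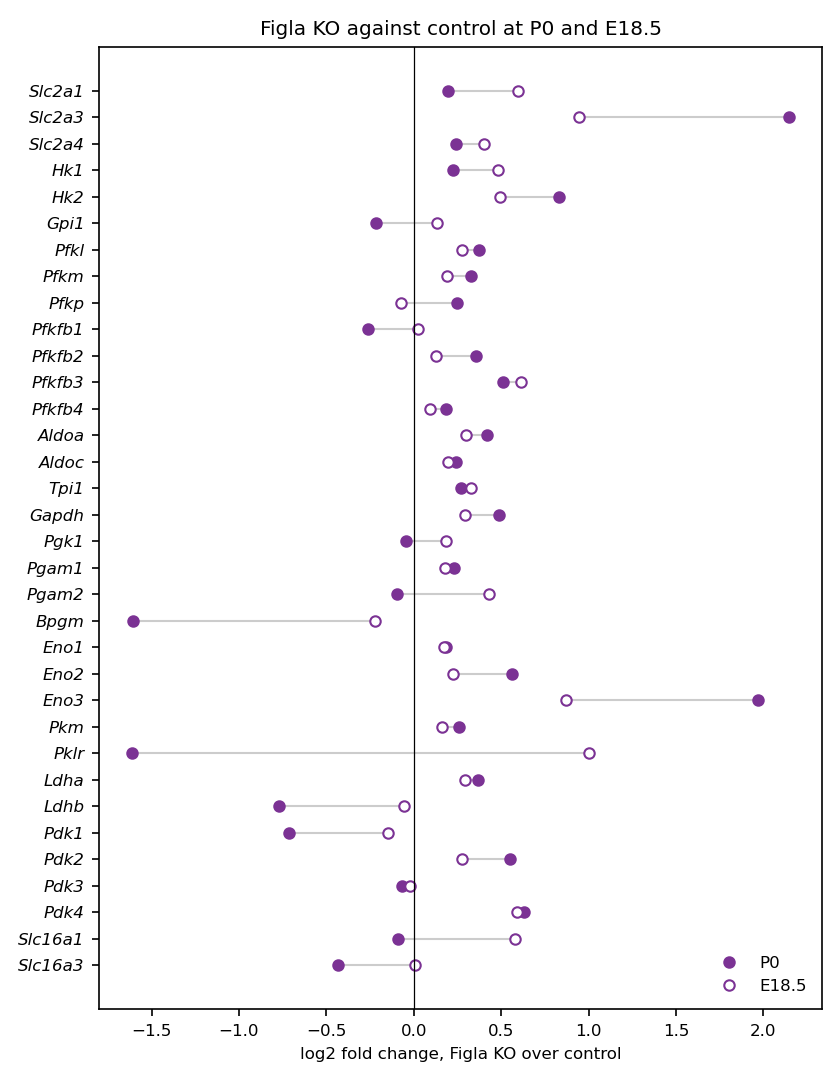
Log2 fold change, Figla-/- over control, at P0 (filled) and E18.5 (open) for each of the 34 genes. Slc2a3 and Eno3 are at 2.15 and 1.97 at P0 and 0.95 and 0.87 at E18.5; Bpgm is at -1.61 at P0 and -0.22 at E18.5.

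Whether the knockout effect differed between the ages was examined as an interaction within the Figla set. Since it uses the P0 samples, Slc2a3 and Eno3 again carry no test; their differences of log2 fold change, P0 minus E18.5, were 1.22 and 1.11. Of the other 32 genes 0 were called (0% of 18379 genes), and 4 had an unadjusted p under 0.05, against 5.32% of all genes. The difference was -1.36 for Bpgm, and edgeR adjusted p was at least 0.9125 for each of the 32. Of the 32 differences 16 were positive, against 50.8% of all genes.

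At P0 against E18.5, 0 of the 32 were called in Figla-/- ovaries (0.00544% of all genes) and 0 in controls (0% of all genes), with unadjusted p under 0.05 for 9 and 11 of them, against 12.6% and 23.1% of all genes. The median log2 change with age was -0.37 in Figla-/- ovaries, beside -0.01 over all genes, and -0.39 in controls, beside -0.02. Of the 32, 27 were negative in Figla-/- ovaries and 23 in controls, while 48.5% and 47.9% of all genes were positive. In Figla-/- ovaries DESeq2 called 1 of the 32, Slc2a1, lower at P0 at -1.46 (adjusted p = 0.00534), against 1.68% of all genes. In controls DESeq2 called 6 of the 32, against 8.79% of all genes. Slc2a1 (-1.05, adjusted p = 0.0282), Pfkm (-0.46, adjusted p = 0.0116) and Gapdh (-0.92, adjusted p = 0.0416) were lower at P0. Bpgm (1.02, adjusted p = 0.0230), Ldhb (0.81, adjusted p = 0.000416) and Pdk3 (0.46, adjusted p = 0.0183) were higher at P0. The age and knockout comparisons share samples.

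The pathways that border glycolysis were described through 7 further gene lists. The counts of each list stand beside 5.12% of all genes called higher and 10.9% lower in the Figla set. In the Lhx8 set these shares were 3.06% and 7.29%. Among 13 tested genes of other glycolytic isoforms and side enzymes, 0 rose and 3 fell in Figla-/- ovaries (median log2 fold change 0.10), and 0 of 9 rose and 1 fell in Lhx8-/- ovaries (median -0.04). Tigar, a phosphatase that lowers fructose 2,6-bisphosphate, fell in both. It had 7.71, 9.39 and 10.7 CPM in Figla-/- ovaries, against 27.6, 30.0 and 34.9 CPM, and 6.63, 7.15 and 7.32 CPM in Lhx8-/- ovaries, against 24.4, 22.6 and 15.1 CPM. No knockout came near a control (log2 fold change -1.74 ± 0.17, edgeR adjusted p = 7.97e-05, and -1.56 ± 0.23, adjusted p = 0.00234). The other genes that fell in the Figla set were Hkdc1, a hexokinase-like gene at no more than 4.05 CPM, and Pgp, a phosphoglycolate phosphatase.

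Of 8 genes of the pentose phosphate pathway, which branches off after hexokinase, 2 fell in each knockout and 0 rose, with medians of -0.19 in the Figla set and -0.33 in the Lhx8 set. Taldo1, transaldolase, fell in both (log2 fold change -0.77, edgeR adjusted p = 0.00282, and -0.64, adjusted p = 0.00953). It was joined by Rpe in Figla-/- and by Rpia in Lhx8-/- ovaries, both of which act on ribulose 5-phosphate. Of the glycogen and gluconeogenesis genes tested, 12 in the Figla set and 13 in the Lhx8 set, Gyg, the glycogen primer, fell in both (-0.75, adjusted p = 0.00766, and -0.69, adjusted p = 0.0222), and Pygm, muscle glycogen phosphorylase, rose in Figla-/- ovaries (0.56, adjusted p = 0.0264).

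Among the pyruvate entry genes, 1 of 11 rose in Figla-/- ovaries, and 1 of 10 rose and 1 fell in Lhx8-/- ovaries. Pdp2, a phosphatase that opposes the pyruvate dehydrogenase kinases, rose in both (log2 fold change 0.73, edgeR adjusted p = 0.0186, and 0.96, adjusted p = 0.00655), and Pcx, pyruvate carboxylase, fell in Lhx8-/- ovaries (-0.76, adjusted p = 0.0297). None of the other hexose transporters was called, of 9 tested in the Figla and 5 in the Lhx8 set.

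Hypoxia response genes other than members numbered 20 in the Figla set, of which 3 rose and 2 fell (median 0.21), and 19 in the Lhx8 set, of which 2 rose and 1 fell (median 0.36). Ndrg1 rose in Figla-/- ovaries (log2 fold change 0.73, edgeR adjusted p = 0.00163) and missed the threshold in Lhx8-/- ovaries (0.71, adjusted p = 0.0552). Adm, adrenomedullin, rose in Lhx8-/- ovaries (0.91, adjusted p = 0.0173) and missed it in Figla-/- ovaries (0.74, adjusted p = 0.147). Kdm3a, a histone demethylase gene, rose in Figla-/- ovaries (0.61, adjusted p = 0.0118) and missed the threshold in Lhx8-/- ovaries (0.66, adjusted p = 0.0737). Bnip3, a mitophagy gene, fell in Lhx8-/- ovaries (-1.34, adjusted p = 0.0432) and was at -0.40 in Figla-/- ovaries (adjusted p = 0.265). The 2 that fell in Figla-/- ovaries were Egln1, an oxygen-sensing prolyl hydroxylase gene (-0.35, adjusted p = 0.0337), and Higd1a (-0.53, adjusted p = 0.0367). Of the regulators of glucose use, 4 of 18 rose and 1 fell in Figla-/- ovaries and 1 of 17 rose in Lhx8-/- ovaries. Over all genes, 5.12% rose and 10.9% fell in the Figla set, and 3.06% rose and 7.29% fell in the Lhx8 set. Txnip, whose product is induced by glucose and promotes the removal of glucose transporters from the membrane, rose in both (0.50, adjusted p = 0.0371, and 1.40, adjusted p = 0.00482). Its relative Arrdc4 (0.65, adjusted p = 0.0137) and the coactivator gene Ppargc1a (0.90, adjusted p = 0.0329) rose in Figla-/- ovaries. Mlx, the partner of the glucose-sensing factors that induce Txnip, fell there (-0.68, adjusted p = 0.0170), and none of these 3 was called in the Lhx8 set. At E18.5, 0 genes of these 7 lists were called.

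**Figure D4:**
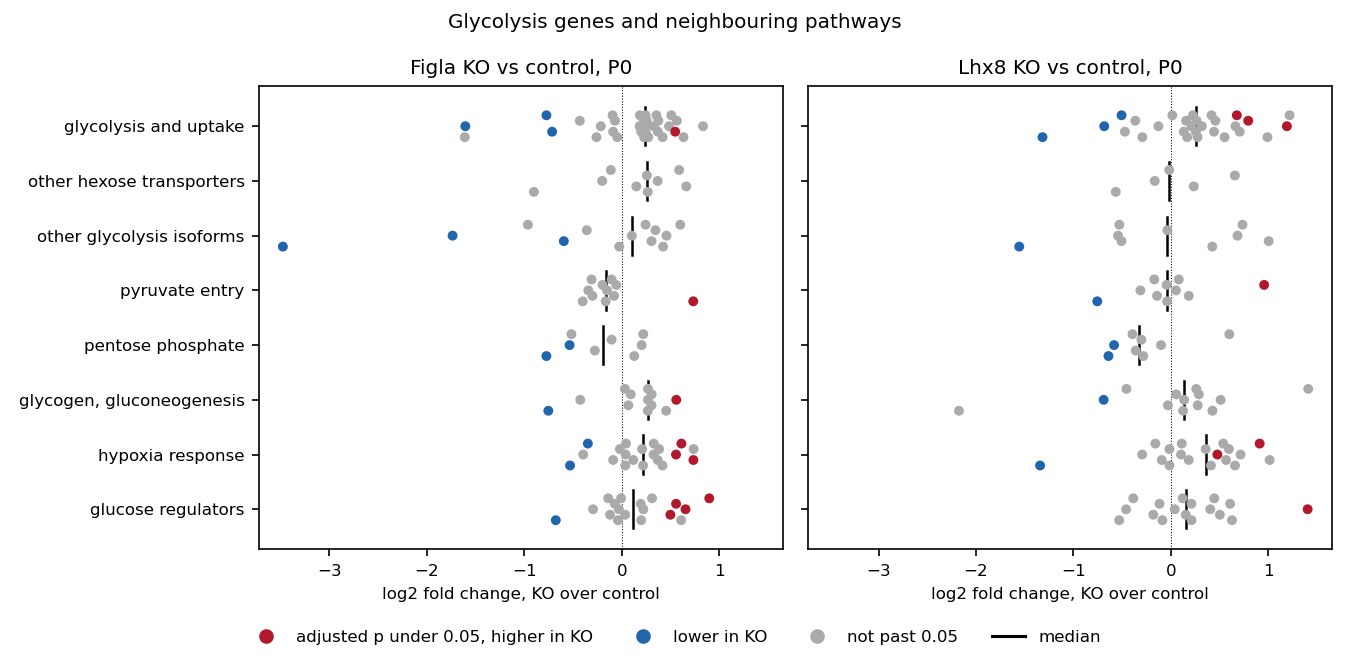
Log2 fold change at P0, knockout over control, of every tested gene in the glycolysis set and the 7 bordering lists, for the Figla and Lhx8 sets; each point is a gene, coloured where its edgeR adjusted p is under 0.05, and the black line is the list's median. Medians lie between -0.33 and 0.36. Some lists hold called genes in both directions, some in a single direction, and the other hexose transporters hold none.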

How the data were processed

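RNA was measured in 20 ovary libraries. Per the labels' protocols, the libraries hold messenger RNA, prepared with Nextera (Figla) or QuantSeq 3′ (Lhx8) kits. The submitters' processing notes name cutadapt, HISAT2 (versions not given in the sources used here) and GRCm38.p5. As the file headers show, the authors deposited raw counts per gene from featureCounts 1.6.0 on GENCODE M12, without regard to strand. Reads shared by near-identical copies may be lost or moved, so sharing was measured as 50-base stretches found in other genes' transcripts (GENCODE M21).

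Each comparison was fitted with edgeR 4.0.16 (R 4.3.3; filterByExpr, minimum count 10 and total 15; TMM; quasi-likelihood test; Benjamini-Hochberg adjustment over all genes tested; threshold 0.05). The 2 library sets were never fitted together. CPM are TMM-scaled, and TPM used exon lengths from the files. Near-identical E18.5 libraries were summed. The fit was tested on simulated data. Alternatives were DESeq2 1.42.0, other scaling, no filter, replicate blocks, and omitted libraries; leaving out members that share sequence was chosen after seeing the data. The members and lists were chosen with earlier results of these data known, and named genes are the members and, of each bordering list, up to 4 called genes with the largest change; Egln1 and Higd1a were named after their values were seen.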

Additional observations from a re-analysis of the deposited data

How the results depend on the processing

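The falls of Bpgm held in every alternative (log2 fold change -1.84 to -1.27 in the Figla set, -1.42 to -1.20 in the Lhx8 set), as did those of Ldhb and Pdk1 in the Figla set and the rise of Hk2 in the Lhx8 set. Counts of called genes did not hold as well. With 3 samples a group, small effects lie within the spread, and genes under the count filter are not resolved.

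Figla-/- at P0 called 2767 genes and 4 members; the counts were 4680 and 11 with a replicate block, 1363 genes in a model of all Figla samples, 1835 genes with agreeing labels only, 11 members with no filter, and 1423 to 2882 genes leaving out 1 library. Lhx8-/- called 1582 genes and 6 members; the counts were 2682 and 11 with no filter, 931 and 3 with a replicate block, and 630 to 1490 genes and 2 to 6 members leaving out 1 library. At E18.5, 1 gene was called; the count was 78 by DESeq2, 229 with no filter, 28 with a replicate block, 34 with near-identical libraries kept apart, 53 in a model of all Figla samples, 1082 (3 members) with agreeing labels only and 0 to 89 leaving out 1 library. At E18.5 the agreeing labels leave 1 control sample, the summed pair, against 2 knockouts, so that fit assumes the lone control varies like the knockouts. With age in controls, 0 genes and 0 of all 34 members were called, but 1616 and 7 by DESeq2, 1252 and 7 with no filter, 1490 and 8 with near-identical libraries kept apart, and 0 to 556 and 0 to 2 leaving out 1 library. With age in Figla-/- ovaries 1 gene was called, but 309 and 1 member by DESeq2, 0 with RLE scaling, 530 and 2 members with no filter, 16 with near-identical libraries kept apart, and 0 to 150 leaving out 1 library. The difference between ages called 0 genes, but 3 by DESeq2 and 63 with no filter, 1 of them a member (Bpgm, -1.40). The causes were not tested.

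The replicate numbers of the Figla set are only an order of deposit, and those of the Lhx8 set come from library names. Same-numbered samples correlated at 0.402, 0.300 and 0.395 in the Figla set at P0, at 0.581, 0.530 and 0.272 at E18.5, and at -0.175, 0.046 and 0.041 in the Lhx8 set, so pairing is a hint from the data in the Figla set alone, where every sample correlated best with its own number.

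The Figla block added rises of Hk2 (edgeR adjusted p = 0.00193), Aldoa (0.0102), Pfkfb3 (0.0135), Pfkm (0.0249), Pfkl (0.0438) and Pdk4 (0.0447). It also added a fall of Slc16a3 (0.0263). The Lhx8 block ended the calls of Ldhb, Tpi1 and Pdk3 (edgeR adjusted p = 0.0739, 0.1064 and 0.0742). Leaving out 1 library also made calls that the whole set did not give. In the Figla set these were Hk1 without control replicate 3 (adjusted p = 0.0470), Pfkfb2 and Slc16a3 without control replicate 1 (0.0327 and 0.0287) and Pfkm without control replicate 2 (0.0361). In the Lhx8 set they were Ldha without knockout replicate 2 (0.0445) and Pfkfb3 and Slc16a3 without knockout replicate 3 (0.0194 and 0.0186).

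Some uncalled members changed sign. With agreeing labels only, the P0 Figla log2 fold changes were -0.22 for Pfkl, -0.077 for Pfkfb4, -0.42 for Aldoc, -0.17 for Tpi1, -0.30 for Eno1, 4.01 for Pklr and 0.0064 for Slc16a1, and the E18.5 ones -0.30 for Hk2, -0.23 for Aldoa and 0.063 for Bpgm. Pgk1 in the Lhx8 set was -0.0044 with no filter and -0.0001 with a replicate block, and Pdk3 at E18.5 was 0.0001 with no filter. Leaving out 1 library, the P0 Figla values ran from -0.054 to 0.66 for Slc2a1, -0.29 to 0.46 for Aldoc, -0.056 to 0.44 for Eno1, -0.24 to 0.011 for Pgam2, -2.82 to 3.46 for Pklr, -0.13 to 0.021 for Pdk3, -0.21 to 0.086 for Slc16a1 and -0.20 to 0.11 for Pgk1. Those of the Lhx8 set ran from -0.12 to 0.14 for Pgk1, -0.087 to 1.34 for Eno1, -0.055 to 0.55 for Gapdh, -0.11 to 0.43 for Pfkl, -0.064 to 0.28 for Pfkp, -0.024 to 0.35 for Pgam1 and -0.22 to 0.52 for Pdk2. At E18.5 they ran from -0.30 to 0.0021 for Pdk1, -0.12 to 0.077 for Pdk3, -0.49 to 0.17 for Bpgm and -0.15 to 0.021 for Ldhb.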
